A study of Mus musculus with 62 samples.

Results

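The genes described here are the small heat shock proteins of muscle, Hspb1, Hspb2, Hspb3, Hspb6, Hspb7, Hspb8 and Cryab, together with the inducible HSP70 pair Hspa1a and Hspa1b and the inducible HSP90 gene Hsp90aa1. They were taken by symbol and make 10 of the 29239 symbols in the chow experiment, 10 of 21936 in the hypoxia and diet experiment, 10 of 18197 in the AAV experiment and 10 of 17896 in the C2C12 experiment. Each was found in every experiment.

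The RNA sequencing covers mouse skeletal muscle and muscle cells in 62 libraries of 14 groups. In the chow experiment, gastrocnemius (GC) and soleus (SOL) came from F/F mice, which carry the ChREBP gene with a floxed exon 8 and no Cre, and from ChMKO mice, in which the same floxed gene meets Cre under the muscle creatine kinase promoter (n = 5 per group, no treatment). ChREBP, the gene Mlxipl, is a sugar-responsive transcription factor, and this Cre is active in striated muscle fibers and not in the other cells of a muscle. In the second experiment, GC of F/F and ChMKO mice was taken after normal housing (Norm), after 2 weeks in a chamber set to the air pressure of 5500 m (Hypo), or after 3 months on a diet with 68% of calories from fructose (HFrD), with n = 4 per group. All these mice, F/F included, carry the floxed allele, and the ChMKO groups lack exon 8 of it where Cre was active. In the third, GC of C57BL/6J mice was injected with an AAV of serotype 9 that drives either GFP (AAV-CON) or full-length mouse ChREBP (AAV-ChREBP) from a CMV promoter and was harvested 14 days later (n = 5 per group). Male mice of 8 to 10 weeks were used unless the study's methods say otherwise, and the same Norm groups stand against hypoxia and against the longer diet, so mice at the end of the diet may be older than those they are compared with. In the fourth, C2C12 cells, a mouse myoblast line that fuses into myotubes, were transduced with a control or a ChREBP retrovirus and selected with puromycin. Both lines were taken at day 7 of differentiation (n = 4 per group). Each arm is 1 selected line, so its 4 libraries are not independent lines.

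Small heat shock proteins share an alpha-crystallin domain and hold unfolding proteins in a soluble state without using ATP, for later refolding or disposal. In muscle they bind desmin, actin, titin and filamin at the Z-disc and thin filament. HSP70 proteins then refold such clients with J-domain partners, HSP90 proteins finish the folding of kinases, receptors and myosin, and BAG3 with HSPB8 passes damaged filamin to autophagy. Heat shock factor 1 drives Hspa1a, Hspa1b and Hsp90aa1 under stress, while several small heat shock proteins are abundant in unstressed muscle. Soleus is a slow, oxidative postural muscle, and gastrocnemius is mostly fast.

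Upstream sequence was found in RefSeq (GRCm38.p6) for 7 of the 10 genes, with 8 entries since Hspb6 has a pair of start sites. The 250 bases before the start are shown for the genes on which the muscle difference turns and for the HSP70 pair. The first is Hspb7, at chr4:141420529-141420778 on the plus strand, the gene with the largest muscle difference among the 10 in both genotypes. The second is Hspb6, at chr7:30553051-30553300 on the plus strand, for the downstream of its start sites. The third is Hspb1, at chr5:135887669-135887918 on the plus strand. The fourth is Hspb8, at chr5:116422865-116423114 on the minus strand, whose muscle difference had the opposite sign. Hspa1a, at chr17:34972157-34972406, and Hspa1b, at chr17:34959239-34959488, lie on the minus strand and are shown because the pair can hardly be told apart. Capitals mark GAANNTTC, the heat shock element core made of facing GAA units, and TATAAA.
Hspb7: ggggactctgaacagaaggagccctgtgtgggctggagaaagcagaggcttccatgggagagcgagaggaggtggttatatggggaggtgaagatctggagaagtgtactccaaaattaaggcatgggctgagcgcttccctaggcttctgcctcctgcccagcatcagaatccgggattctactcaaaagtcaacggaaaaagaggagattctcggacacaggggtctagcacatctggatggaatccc
Hspb6: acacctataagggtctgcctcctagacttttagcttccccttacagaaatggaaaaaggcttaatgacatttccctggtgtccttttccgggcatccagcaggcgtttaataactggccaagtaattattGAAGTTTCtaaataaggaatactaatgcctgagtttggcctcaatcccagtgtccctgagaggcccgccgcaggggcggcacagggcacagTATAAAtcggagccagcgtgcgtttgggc
Hspb1: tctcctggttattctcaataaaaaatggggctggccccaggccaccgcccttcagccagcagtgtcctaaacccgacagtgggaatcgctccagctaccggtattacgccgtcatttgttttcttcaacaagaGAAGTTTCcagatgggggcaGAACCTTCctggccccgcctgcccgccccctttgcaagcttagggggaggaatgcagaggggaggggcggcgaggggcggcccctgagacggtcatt
Hspb8: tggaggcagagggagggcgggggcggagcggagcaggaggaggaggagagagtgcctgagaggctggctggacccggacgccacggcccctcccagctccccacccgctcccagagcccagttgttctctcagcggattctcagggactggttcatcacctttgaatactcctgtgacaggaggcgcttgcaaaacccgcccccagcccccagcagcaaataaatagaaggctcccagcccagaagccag
Hspa1a: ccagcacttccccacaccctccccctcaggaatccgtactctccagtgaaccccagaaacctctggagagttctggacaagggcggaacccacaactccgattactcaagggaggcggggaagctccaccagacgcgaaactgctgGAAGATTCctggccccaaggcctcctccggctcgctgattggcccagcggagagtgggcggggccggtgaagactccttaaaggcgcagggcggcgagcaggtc
Hspa1b: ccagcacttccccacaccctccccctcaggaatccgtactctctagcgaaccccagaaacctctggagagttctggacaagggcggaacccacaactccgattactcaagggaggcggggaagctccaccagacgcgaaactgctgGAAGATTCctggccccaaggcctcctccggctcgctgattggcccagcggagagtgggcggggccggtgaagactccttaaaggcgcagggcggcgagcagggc

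GAANNTTC, which reads the same on both strands, occurred 2 times before Hspb1 and 1 time before Hspa1a, Hspa1b, Hspb3 and the downstream start of Hspb6. It did not occur before Hspb7, Hspb8 or the upstream start of Hspb6. Of 32851 RefSeq promoter entries searched over the same window, 6.69% held it. The reversed core TTCNNGAA occurred in 7.17% of those entries and before none of the 7 genes, and the extended forms of either core with 3 units, each in 0.47%, also before none. CACGTG, the E-box core that ChREBP with Mlx can bind, occurred in 6.02% of all entries and before none of the 7. TATAAA, searched on both strands, was found before Hspb3 and the downstream start of Hspb6 against 12.4% of all entries, and a MEF2 site before Hspb3, where it overlaps the TATAAA, against 0.508%. The upstream bases of Hspa1a and Hspa1b differed at 3 of 250 positions (98.8% identical). Both genes have no intron and nearly the same coding sequence, so the division of their reads between them is uncertain in every library.

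Positions of the genes in the chow experiment follow GRCm38. Hspb2 (chr9:50751072-50752354, minus strand) and Cryab (chr9:50751325-50756636, plus strand) are head-to-head neighbours whose annotated spans share 1030 bases. The library kit does not mark strand, so reads in the shared stretch cannot be assigned to either gene by strand. The others are Hspb1 (chr5:135887919-135889563, plus), Hspb3 (chr13:113662896-113663676, minus), Hspb6 (chr7:30552556-30555439, plus), Hspb7 (chr4:141420779-141425310, plus), Hspb8 (chr5:116408491-116422864, minus), Hspa1a (chr17:34969359-34972156, minus), Hspa1b (chr17:34956429-34959238, minus) and Hsp90aa1 (chr12:110691036-110696395, minus). The chow values belong to the entries at these positions, except that those of Hspa1b come from a further entry on an alternate locus, which had a higher mean than the entry on chromosome 17.

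Expression is given in FPKM, a level scaled by gene length and library size, and differences as log2 of (FPKM + 1). The soleus and gastrocnemius labels were checked against 5 slow-twitch markers, namely the troponins Tnni1, Tnnt1 and Tnnc1 and the myosins Myh7b and Myh7, and their summed level was 6270 to 10200 FPKM in SOL and 3.73 to 153 FPKM in GC of both genotypes. The summed level of 6 fast-twitch markers was 33700 to 50900 FPKM in GC and 16100 to 19400 FPKM in SOL. The slow-twitch sum differed widely between GC libraries of 1 group, from 3.73 to 153 FPKM in F/F on chow, and is given beside results below where it moves with them. Mlxipl was 24.9 ± 4.10 FPKM (SD, n = 5) in F/F gastrocnemius and 15.7 ± 2.53 FPKM in that of ChMKO, without overlap of the libraries (log2 difference -0.63, adjusted p = 0.413). In SOL the F/F level was 53.4 ± 7.51 FPKM, that of ChMKO was 38.4 ± 7.13 FPKM, and the libraries overlapped (log2 difference -0.47, adjusted p = 0.384). Among the 24 libraries of the hypoxia and diet experiment, 12 (set A) stood apart from the other 12 (set B) on the first principal component, which held 64.1% of the variance. Set A held all 8 HFrD libraries, 2 Norm F/F and 2 Hypo F/F libraries, and set B held the rest, including all Norm and Hypo ChMKO libraries. The labels name no such division. In bulk tissue, fewer cells of a type and less RNA per cell cannot be told apart.

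In GC of chow-fed F/F mice Hspb6 was the most abundant of the 10 genes, at 506 ± 125 FPKM (SD, n = 5), followed by Cryab at 316 ± 84.8, Hspb8 at 205 ± 30.7 and Hspb1 at 124 ± 26.5. Neighbours in the order Hspb6, Cryab and Hspb8 overlapped in their libraries, and every Hspb8 library lay above every Hspb1 library. Hspb7 (70.9 ± 46.7), Hspb2 (60.7 ± 11.9), Hsp90aa1 (28.0 ± 12.4) and Hspb3 (18.1 ± 2.46) followed. Hspa1a, at 0.392 ± 0.475 FPKM, and Hspa1b, at 0.369 ± 0.433 FPKM, were the lowest of the 10. Each of the pair has 4 entries in the chow table, of which the one with the highest mean was used, and with the 4 summed the means were 0.634 and 0.678 FPKM. In SOL of F/F mice the order was Hspb6 (1790 ± 191), Cryab (1360 ± 367), Hspb7 (622 ± 210), Hspb1 (302 ± 133) and Hspb8 (155 ± 37.7), so that Hspb7 stood above Hspb8 there and below it in GC. Neighbours among these 5 overlapped in their libraries in F/F mice, and none did in ChMKO mice. Summed over the 10 genes, the level was 4380 ± 925 FPKM in SOL and 1330 ± 245 FPKM in GC of F/F mice.

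**Figure D1:**
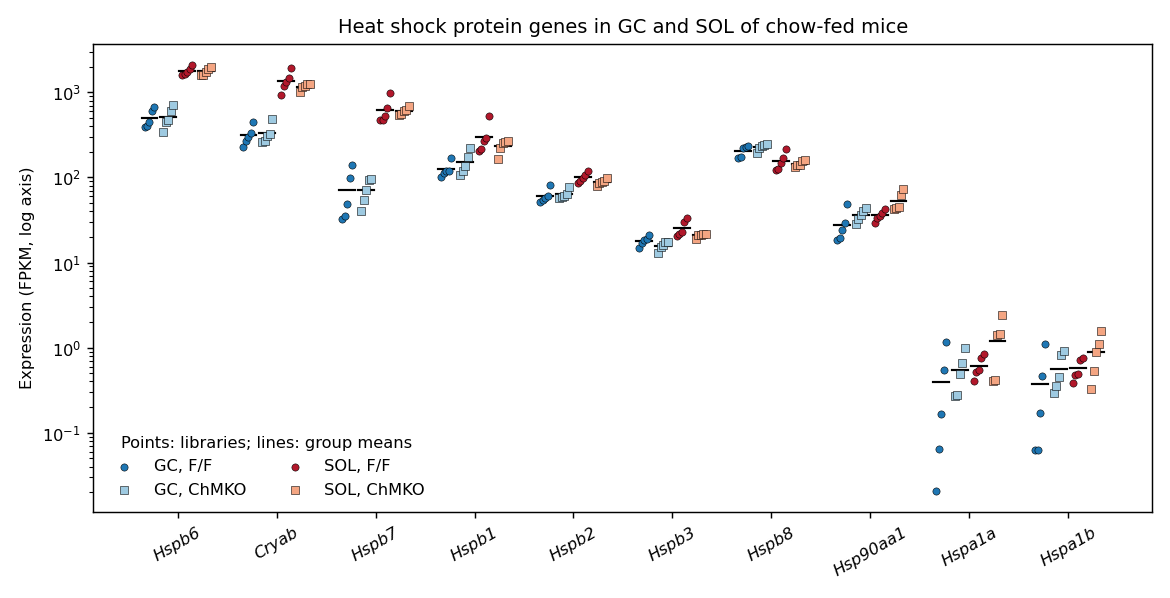
Expression (FPKM, log axis) of the 10 genes in every library of GC and SOL from chow-fed F/F and ChMKO mice, with lines at the group means (n = 5). The SOL libraries of Hspb6, Cryab and Hspb7 lie above every GC library, those of Hspb8 lie lower on average, and the entries used for Hspa1a and Hspa1b reach at most 2.40 FPKM.

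The comparison of soleus with gastrocnemius asks how the genes differ between a slow and a fast muscle. In F/F mice 6 of the 9 genes tested were higher in SOL (Hspb1, Hspb2, Hspb3, Hspb6, Hspb7 and Cryab) and none was lower, and in ChMKO mice 7 of 10 were higher and 1, Hspb8, was lower. Over all genes tested, 50.4% passed an adjusted p under 0.05 in F/F mice (37.9% higher in SOL) and 57.9% in ChMKO mice (41% higher in SOL), so a call in this comparison is common. The median log2 difference was 0.72 over the 9 genes in F/F mice against 0.18 over all genes, and 0.49 over the 10 in ChMKO mice against 0.15. All genes together leaned towards SOL by those medians. With libraries rescaled by their median ratio the all-gene medians were 0.02 in both genotypes, and the share of calls that were higher in SOL fell from 75.1% to 51.8% in F/F mice and from 70.7% to 51% in ChMKO mice.

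Hspb7, which binds filamin C and limits thin filament assembly, had the largest difference of the 10. Its GC libraries of F/F mice read 48.3, 139, 32.6, 99.6 and 34.9 FPKM, and its SOL libraries 475, 660, 529, 974 and 475 FPKM. The lowest SOL library was above the highest GC library, the means differed 8.78-fold, and the log2 difference was 3.30 (SE 0.39, adjusted p = 6.19e-05). In ChMKO mice GC read 71.8, 40.8, 94.1, 96.8 and 54.0 FPKM and SOL 622, 696, 544, 563 and 599 FPKM, an 8.46-fold difference of means (log2 3.13, SE 0.208, adjusted p = 2.84e-07). Within GC of F/F mice the libraries high in Hspb7, 58 and 70, also had the highest slow-twitch sums, 153 and 73.1 FPKM, against 3.73, 10.6 and 57.7 FPKM in libraries 57, 69 and 71. In GC of ChMKO mice the sums were 27, 15, 5.96, 117 and 8.37 FPKM in the library order above, so the highest Hspb7, in library 72, went with the highest sum, and the next highest, in library 61, with the lowest. The part of slow fibers in the spread of Hspb7 within GC was not tested.

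**Figure D2:**
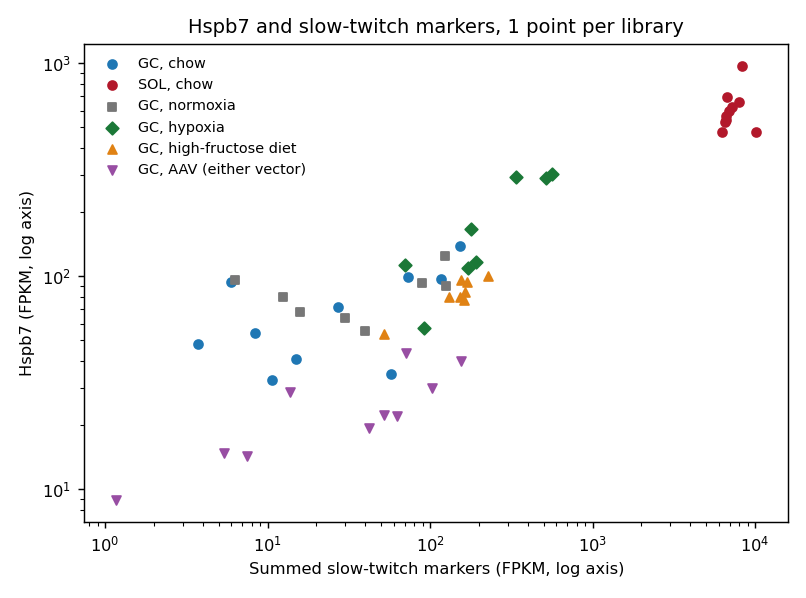
Hspb7 (FPKM, log axis) against the summed level of 5 slow-twitch markers (FPKM, log axis), 1 point for each library of mouse muscle. The sums of the AAV libraries hold 4 of these markers, without Tnnc1, and are not on the same measure as the others. The SOL libraries lie at 6270 to 10200 FPKM of slow-twitch markers and 475 to 974 FPKM of Hspb7, and the GC libraries with the highest Hspb7, up to 303 FPKM after hypoxia, have slow-twitch sums of 337 to 565 FPKM.

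Cryab, alpha-B-crystallin, a chaperone of desmin and titin, read 267, 450, 337, 298 and 228 FPKM in GC and 924, 1460, 1180, 1910 and 1310 FPKM in SOL of F/F mice. The muscles did not overlap, with a 4.29-fold difference of means (log2 2.1, SE 0.215, adjusted p = 2.53e-05). In ChMKO mice GC read 308, 264, 484, 328 and 270 FPKM and SOL 1180, 1250, 1010, 1150 and 1240 FPKM, a 3.52-fold difference (log2 1.85, SE 0.147, adjusted p = 1.15e-06). Hspb6, a small heat shock protein phosphorylated by cyclic nucleotide-dependent kinases, had a difference of similar size, with 407, 670, 452, 605 and 393 FPKM in GC and 1640, 1860, 1620, 2080 and 1720 FPKM in SOL of F/F mice. Its means differed 3.53-fold (log2 1.85, SE 0.163, adjusted p = 1.02e-05). In ChMKO mice Hspb6 read 467, 344, 703, 601 and 454 FPKM in GC and 1870, 2000, 1620, 1610 and 1740 FPKM in SOL, 3.44-fold apart (log2 1.82, SE 0.164, adjusted p = 3.02e-06). As with Cryab, no SOL library reached down to a GC library in either genotype.

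Hspb1, which binds actin and filamin and is phosphorylated in the p38 pathway, read 112, 170, 119, 102 and 119 FPKM in GC and 215, 267, 206, 531 and 290 FPKM in SOL of F/F mice. The muscles did not overlap, and SOL was 2.43-fold higher (log2 1.2, SE 0.24, adjusted p = 0.00177). In ChMKO mice GC read 136, 106, 221, 175 and 118 FPKM and SOL 253, 224, 164, 267 and 262 FPKM, where the SOL library at 164 lay below GC libraries at 221 and 175 (log2 0.66, SE 0.199, adjusted p = 0.0146). This call in ChMKO mice was lost with rescaled libraries (log2 0.48, adjusted p = 0.0577). Hspb2, which binds the myotonic dystrophy kinase DMPK, read 59.8, 56.7, 81.2, 50.9 and 54.8 FPKM in GC and 86.4, 107, 90.3, 97.8 and 118 FPKM in SOL of F/F mice, 1.65-fold apart without overlap (log2 0.72, SE 0.131, adjusted p = 0.00101). In ChMKO mice it read 57.9, 59.2, 77.4, 60.5 and 64.4 FPKM in GC and 97.4, 91.1, 78.5, 84.9 and 89.5 FPKM in SOL, 1.38-fold apart without overlap (log2 0.47, adjusted p = 0.000682).

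Hspb3, which forms complexes with Hspb2 in muscle, was the least abundant of the small heat shock proteins in these chow libraries. It read 19.1, 18.6, 21.3, 16.9 and 14.8 FPKM in GC and 21.5, 29.8, 20.5, 33.2 and 22.6 FPKM in SOL of F/F mice, with 1 SOL library inside the GC range (log2 0.46, SE 0.144, adjusted p = 0.021). In F/F mice the call was lost with rescaled libraries (log2 0.25, adjusted p = 0.157), without GC library 71 (log2 0.39, adjusted p = 0.0542) and without SOL library 58 (log2 0.40, adjusted p = 0.053). In ChMKO mice Hspb3 read 15.9, 17.5, 13, 15.4 and 17.4 FPKM in GC and 18.7, 21.5, 21.3, 20.9 and 21.8 FPKM in SOL, 1.32-fold apart without overlap (log2 0.38, SE 0.0795, adjusted p = 0.00167).

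Hspb8, the partner of BAG3 in chaperone-assisted autophagy, was the small heat shock protein with the opposite sign. In ChMKO mice it read 195, 239, 247, 232 and 220 FPKM in GC and 139, 139, 131, 159 and 158 FPKM in SOL, so that every SOL library was lower (ratio of means 0.64, log2 -0.64, SE 0.0787, adjusted p = 3.65e-05). In F/F mice GC read 227, 172, 222, 171 and 232 FPKM and SOL 127, 169, 147, 214 and 121 FPKM, with overlap and no call (log2 -0.41, SE 0.163, adjusted p = 0.0542). The F/F difference passed the threshold with rescaled libraries (log2 -0.63, adjusted p = 0.0082), with all 4 groups in 1 fit (adjusted p = 0.0124) and without GC library 58 (adjusted p = 0.0449), GC library 70 (0.0454) or SOL library 70 (0.0116). The F/F SOL library 70, at 214 FPKM, lay inside the GC range.

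Hsp90aa1, which also serves myosin folding with Unc45b, read 18.6, 48.7, 19.3, 23.8 and 29.4 FPKM in GC and 29.5, 42.1, 33.7, 34.8 and 38.6 FPKM in SOL of F/F mice. GC library 58, at 48.7, was above every SOL library, and the difference was not called (log2 0.42, adjusted p = 0.139), whereas it was called without that library (log2 0.64, adjusted p = 0.00511) and with the library number, which the labels do not tie to an animal, as a block (log2 0.42, adjusted p = 0.0392). In ChMKO mice it read 40.8, 32.3, 36.5, 43.3 and 28.2 FPKM in GC and 44.5, 42.4, 44.0, 73.2 and 61.9 FPKM in SOL, with 1 SOL library under the highest GC library (log2 0.52, SE 0.165, adjusted p = 0.0174), a call lost with rescaled libraries (log2 0.35, adjusted p = 0.085). Hspa1a, in the entry used, was at most 1.16 FPKM in GC and 2.40 FPKM in SOL over both genotypes, and it was not called (log2 0.27, adjusted p = 0.262 in F/F and log2 0.46, adjusted p = 0.117 in ChMKO). Hspa1b did not reach the mean of 0.5 FPKM needed for the test in F/F mice in the entry used and differed by log2 0.24 (adjusted p = 0.258) in ChMKO mice. With the 4 entries summed, Hspa1a reached at most 1.94 FPKM in GC and 3.5 FPKM in SOL, and the differences were log2 0.36 and 0.51 for Hspa1a (adjusted p = 0.266 and 0.154) and 0.35 and 0.42 for Hspa1b (adjusted p = 0.279 and 0.151) in F/F and ChMKO mice. Without SOL library 60 or 61 the ChMKO difference of Hspa1a was log2 0.60 and passed, with adjusted p of 0.0456 and 0.0441.

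**Figure D3:**
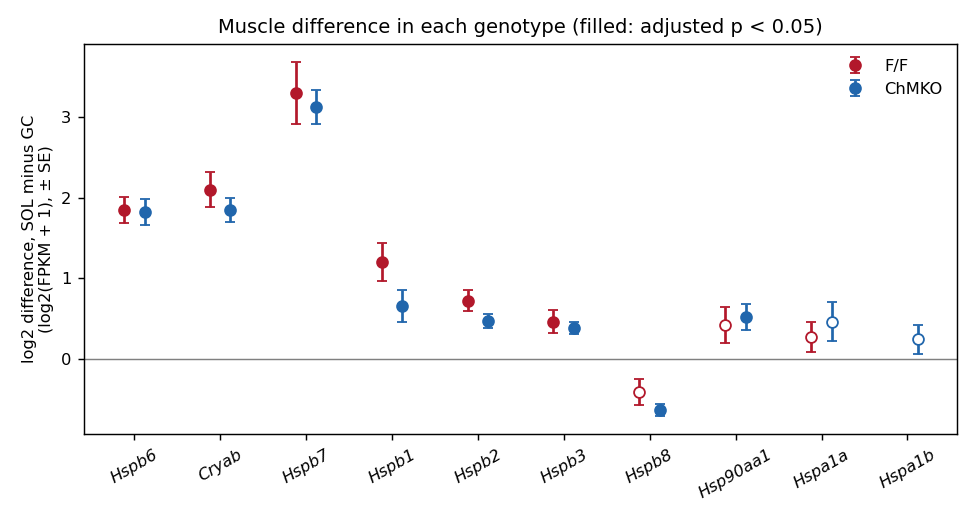
Difference between SOL and GC (log2(FPKM + 1), SOL minus GC, ± SE, n = 5 per group) for each gene in F/F and ChMKO mice, filled where adjusted p was under 0.05. Hspb7 stands highest at 3.30 and 3.13, Cryab and Hspb6 lie between 1.82 and 2.1, and Hspb8 lies below 0 in both genotypes.

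The partner genes were described by fixed lists, as counts beside the members and with no test of a list. Of 9 partners of chaperone-assisted autophagy and the Z-disc, 6 were higher and 1 lower in SOL of F/F mice (median log2 0.64, all genes 0.18), including the HSPB8 partner Bag3 (log2 1.00, adjusted p = 0.000286) and the filamin gene Flnc (log2 1.33, adjusted p = 0.00349). In ChMKO mice 8 of the 9 were higher and 1 lower, with Flnc at log2 1.07 (adjusted p = 5.15e-05). Thus Bag3 was higher in SOL of F/F mice while the estimate for its partner Hspb8 was below 0. Of 14 J-domain proteins, 6 were higher and 1 lower in F/F mice (median 0.19), led by Dnaja4 (log2 1.8, adjusted p = 2.9e-05) and Dnajb4 (log2 1.44, adjusted p = 0.000717). In ChMKO mice 8 passed upward and 1 downward, with Dnaja4 at log2 1.71 and Dnajb4 at 1.66.

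Of 12 other HSP70 and HSP110 genes tested, 8 were higher and 1 lower in SOL of F/F mice (median 0.44) and 9 were higher in ChMKO mice, with Hspa2, a relative of Hspa1a best known from the testis, at log2 1.55 (adjusted p = 1.52e-05) and 1.52 (adjusted p = 8.95e-06). Of 13 other HSP90 genes and co-chaperones, 3 were higher and 3 lower in F/F mice (median 0.03), among them the myosin chaperone Unc45b (log2 -0.74) and its general relative Unc45a (log2 0.60). Among ChMKO mice the counts were 4 and 4, with Unc45b at log2 -0.64 and the endoplasmic reticulum paralog Hsp90b1 at log2 0.60. Of 10 chaperonins, 4 were higher and 1 lower in F/F mice, with mitochondrial Hspe1 at log2 0.45 and cytosolic Cct6a at log2 -0.45, and the counts in ChMKO mice were 7 and 2, with Hspe1 at log2 0.42 and Hspd1 at log2 0.38. Of 11 endoplasmic reticulum stress genes 7 were higher in F/F mice and 5 in ChMKO mice, with Ddit3 at log2 1.24 and 1.29. Of 4 genes of heat shock factors and their binding protein, none was called or had an unadjusted p under 0.05 in F/F mice, and in ChMKO mice Hsf2 was higher (log2 0.33) and Hsf4 lower (log2 -0.50).

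Markers of other cell types also moved between the muscles. Of 5 markers each in F/F mice, 5 endothelial (median log2 1.24), 5 red blood cell (1.37), 4 smooth muscle (0.90) and 2 adipocyte markers (1.33) were higher in SOL. From the separate fibroblast, macrophage and Schwann cell lists no marker was called with limma (0, 1 and 0 at an unadjusted p under 0.05). In ChMKO mice all 5 endothelial (1.03), red blood cell (1.28) and smooth muscle markers (0.65) together with 3 of 4 Schwann cell (0.87) and 2 of 5 adipocyte markers (0.60) were higher, and 1 of 6 macrophage markers (-0.19) was lower. Their part in the differences of the heat shock protein genes was not tested. Cryab, Hspb1, Hspb2 and Hspb6 are made outside skeletal fibers as well, for example in smooth muscle.

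The genes with the most similar profiles over the 20 chow libraries were sought by the root mean square difference of centred log2(FPKM + 1), among the 3772 genes that averaged 10 FPKM or more. The profile of Hspb7, which itself spread by 1.69, was closest to Myom3 (0.195), a slow and intermediate fiber M-band protein, then to Klhl34 (0.249) and Lmod2 (0.305), a thin filament nucleator. Hspb6 (own spread 0.95) was closest to Coro6 (0.168), Acaa2 (0.174) and Dnaja4 (0.191), and Cryab (1.03) to Myl12a (0.199), Hspb6 (0.203) and Dnaja4 (0.265). Hspb8 (0.334) was closest to the autophagy receptor Sqstm1 (0.157), then Stt3b (0.167) and the myosin chaperone cofactor Smyd1 (0.18). Hspa1a and Hspa1b were both closest to Hsp90aa1 (0.224 each), then to Dnaja1 (0.280 and 0.235) and Serpinh1 (0.298 and 0.238). Hsp90aa1 (0.468) was closest to Dnaja1 (0.196), Gm6297 (0.269) and Serpinh1 (0.274). Hspb1 was closest to Mustn1 (0.308), with Twf2 and Ap5s1 at 0.320, Hspb2 to LOC108169038 (0.0924), Nol3 (0.0966) and Rplp0 (0.101), and Hspb3 to Trappc4 (0.165), Eif3l (0.166) and Atxn10 (0.170). Every such profile includes the difference between the muscles.

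ChREBP knockout on chow was compared with F/F in each muscle. In GC none of the 8 genes tested was called or reached an unadjusted p under 0.05 with limma, against 0.0236% of all genes at the adjusted and 4.63% at the unadjusted threshold. Differences there ran from log2 -0.18 (Hspb3) to 0.44 (Hsp90aa1, SE 0.231, adjusted p = 1). In SOL none of 10 was called, against 0.0225% of all genes, and 1 reached an unadjusted p under 0.05, against 9.74%. That gene was Hsp90aa1, higher in ChMKO mice at 42.4 to 73.2 FPKM than in F/F mice at 29.5 to 42.1 FPKM, a 1.49-fold difference of means without overlap (log2 0.54, SE 0.157, adjusted p = 0.388). The small heat shock proteins differed in SOL by log2 -0.30 (Hspb1, SE 0.239) to 0.01 (Hspb7, SE 0.181). The muscle difference itself was compared between genotypes in 1 fit with the library number as a random effect. None of the 10 was called, against 0.00759% of all genes, and none reached an unadjusted p under 0.05, against 5.99%. The largest estimate was that of Hspb1, whose muscle difference was smaller in ChMKO mice (difference of differences log2 -0.55, SE 0.325, adjusted p = 0.824), and that of Hspb7 was -0.17 (SE 0.455).

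Hypoxia was compared with normoxia in GC. In ChMKO mice, where all 8 libraries belong to set B, Hspb7 was the gene of the 10 with the largest difference. It read 79.7, 92.8, 96.4 and 89.6 FPKM in Norm and 166.6, 112.6, 293.8 and 302.5 FPKM in Hypo libraries. The groups did not overlap and the means differed 2.44-fold, yet Hspb7 missed the adjusted threshold (log2 1.17, SE 0.274, adjusted p = 0.0836). Without the Hypo library c333, which read 113 FPKM, it passed (log2 1.45, adjusted p = 0.0198). Cryab read 565, 456, 434 and 499 FPKM in Norm and 674, 490, 981 and 1220 FPKM in Hypo libraries, where 1 Hypo library lay within the Norm range (log2 0.71, SE 0.243, adjusted p = 0.204). None of the 10 genes was called by limma, against 0.89% of all genes, and Hspb7 and Cryab alone reached an unadjusted p under 0.05, against 15.1%. With voom, limma's test on reads recovered from FPKM and gene length, none was called and the count at the unadjusted threshold was again 2.

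The slow-twitch markers moved in the same libraries. Their sum was 12.4, 89.6, 6.31 and 125 FPKM in Norm ChMKO libraries and 178, 70.1, 337 and 565 FPKM in Hypo ChMKO libraries, in the library order of the Hspb7 values above. Library c333, lowest of the Hypo libraries in Hspb7, was also lowest in the slow-twitch sum, and c340 and c345 were highest in both. Of the 4 slow-twitch markers tested all had an unadjusted p under 0.05 and none was called (median log2 2.65). The sum of red blood cell markers was 217 to 407 FPKM in Norm and 316 to 840 FPKM in Hypo ChMKO libraries. The part of either in the Hspb7 values was not tested. Of the other 8 members, Hspb1 differed by log2 0.48 (SE 0.23), Hspb6 by 0.23, Hspb3 by 0.19, Hspb8 by 0.01 and Hspb2 by -0.23. Hspa1a differed by -0.26 (SE 0.542) and Hspa1b by -0.34 (SE 0.681). Norm library c370 was the highest of its group in both, at 12.9 and 34.3 FPKM. Hsp90aa1 read 19.7, 8.53, 5.87 and 10.3 FPKM in Norm and 6.54, 7.85, 2.61 and 8.99 FPKM in Hypo ChMKO libraries (log2 -0.67, SE 0.365, adjusted p = 0.434). Among the partner lists 1 gene was called in this comparison, Hspb11, an intraflagellar transport protein outside the classical small heat shock family (log2 -0.51, adjusted p = 0.0363).

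In F/F mice the hypoxia groups each hold 2 libraries of set A and 2 of set B. Hspb7 read 55.4 and 63.7 FPKM in Norm and 117 and 110 FPKM in Hypo libraries of set A, and 68.1 and 125 FPKM in Norm and 289 and 57.2 FPKM in Hypo libraries of set B. Both Hypo libraries were higher in set A, and in set B 1 was higher and 1 lower than both Norm libraries. Over all 8 libraries the difference was log2 0.70 (SE 0.457, adjusted p = 1), within set A 0.92 (SE 0.0876, adjusted p = 0.0184) and within set B 0.48 (SE 0.763, adjusted p = 0.846). The slow-twitch sums were 39.7 and 29.9 FPKM in Norm and 191 and 172 FPKM in Hypo libraries of set A, and 15.8 and 123 FPKM in Norm and 517 and 92.3 FPKM in Hypo libraries of set B. None of the 10 genes was called over all libraries with limma or voom, against 0% of all genes, and none reached an unadjusted p under 0.05, against 3.83%. Within set A the share of all genes called was 0.748% and within set B 0%. Cryab differed by log2 0.47 in set A and 0.35 in set B, and Hsp90aa1 by 0.00 and -0.77 (SE 0.185, adjusted p = 0.651). The response was compared between genotypes in 1 fit, where none of the 10 was called or reached an unadjusted p under 0.05, against 0% and 1.23% of all genes. The estimate for Hspb7 was 0.47 (SE 0.578).

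**Figure D4:**
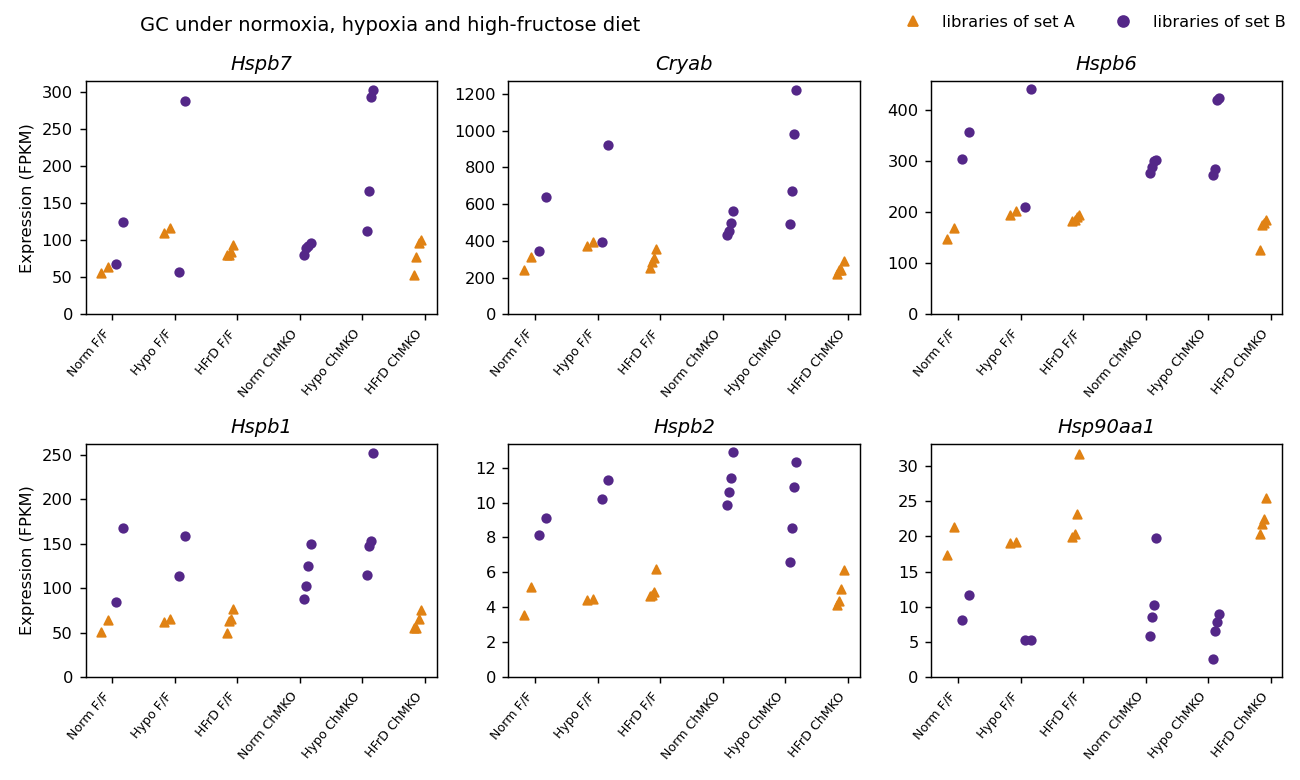
Expression (FPKM) of 6 of the genes in each GC library under normoxia, hypoxia and the high-fructose diet, with triangles for the libraries of set A and circles for those of set B (n = 4 per group). Hspb7 reaches 289 to 303 FPKM in 3 Hypo libraries of set B against at most 125 FPKM in any Norm library, while the libraries of set A lie below those of set B in Hspb1, Hspb2 and Hspb6 without overlap, and mostly above them in Hsp90aa1.

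The high-fructose diet was compared with normal housing. In ChMKO mice 7 of the 10 genes were called, against 64% of all genes, but all HFrD libraries are of set A and all Norm ChMKO libraries of set B, so the diet, its length, the age of the mice and the set cannot be told apart. Hspb2 read 12.9, 11.4, 9.85 and 10.6 FPKM in Norm and 4.11, 5.04, 4.34 and 6.16 FPKM in HFrD libraries (log2 -1.05, SE 0.114, adjusted p = 5.73e-05). Cryab read 565, 456, 434 and 499 against 288, 242, 240 and 218 FPKM (log2 -0.98, SE 0.102, adjusted p = 4.41e-05). Neither gene's groups overlapped. Hspb1 read 149, 88.2, 102 and 125 against 65.0, 75.4, 54.7 and 54.7 FPKM (log2 -0.87, adjusted p = 0.00137), and Hspb6 300, 302, 288 and 276 against 184, 175, 179 and 127 FPKM (log2 -0.82, adjusted p = 0.000194). Hspb3 read 18.7, 24.4, 19.7 and 19.2 against 9.29, 11.5, 12.7 and 10.6 FPKM (log2 -0.84, adjusted p = 0.000131), and Hspb8 295, 276, 275 and 315 against 149, 156, 182 and 163 FPKM (log2 -0.83, adjusted p = 1.45e-05). These 6 small heat shock proteins were lower in every HFrD library than in every Norm ChMKO library. Hsp90aa1 had the other sign, with 19.7, 8.53, 5.87 and 10.3 against 20.3, 22.4, 21.7 and 25.5 FPKM (log2 1.07, SE 0.277, adjusted p = 0.0078).

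Hspb7 was not among the genes called, at 79.7 to 96.4 FPKM in Norm and 53.5 to 99.9 FPKM in HFrD ChMKO libraries (log2 -0.17, SE 0.175, adjusted p = 0.424). Hspa1a (log2 -0.51, SE 0.56, adjusted p = 0.446) and Hspa1b (log2 -0.8, SE 0.71, adjusted p = 0.343) were not called either. The median over all genes was log2 -0.17, and -0.02 with rescaled libraries, where the share of calls that were higher rose from 30.3% to 52.9%. With voom 7 of the 10 were again called. Among the partner lists of this comparison, 8 of 9 autophagy and Z-disc partners, 9 of 11 endoplasmic reticulum stress genes, 7 of 13 HSP90 genes and co-chaperones, 6 of 14 J-domain proteins and 5 of 10 chaperonins were lower, and 0, 1, 2, 5 and 0 were higher. Among the genes called in these lists were the endoplasmic reticulum chaperone Hsp90b1 (log2 0.93) and the J-domain genes Dnajb4 (0.81) and Dnajc3 (0.56), all higher, and Pdia4 (-0.86), Xbp1 (-0.48), Smyd1 (-0.68), Bag3 (-0.60), Dmpk (-0.56), Cct3 (-0.47) and Cct5 (-0.47), all lower. Of 13 other HSP70 and HSP110 genes, 3 were higher and 3 lower, among the latter the constitutive Hspa8 (-0.52) and its nucleotide exchange factor Hsph1 (-0.47). Of 4 heat shock factor genes, Hsf1 (-0.38) and Hsbp1 (-0.50) were lower, as was Hspb11 (-0.32). Markers of other cell types fell in the same comparison, with 5 of 5 endothelial (median log2 -0.67), 5 of 5 red blood cell (-1.2), 4 of 5 fibroblast (-0.96), 5 of 6 macrophage (-0.64) and 2 of 4 smooth muscle markers (-0.44) lower, and of 6 muscle fiber markers 4 were lower and 1 higher. In the same comparison 1 of 4 slow-twitch (1.86) and 1 of 5 adipocyte markers (0.15) were higher, and 1 of 4 Schwann cell markers was higher and 1 lower. Their part in the values of the heat shock protein genes was not tested. Within F/F mice, which have Norm and Hypo libraries in both sets, set A minus set B was log2 -1.06 for Hspb1, -0.98 for Hspb2, -0.83 for Hspb6, -0.71 for Cryab, -0.34 for Hspb8, -0.13 for Hspb3 and 1.3 for Hsp90aa1. Between HFrD and Norm in ChMKO mice the same 7 genes differed by -0.87, -1.05, -0.82, -0.98, -0.83, -0.84 and 1.07. The difference between the sets correlated with gene length across genes (Pearson's r = 0.38 with log2 length and Spearman's rho = 0.44 over 9315 genes, which are not independent replicates).

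In F/F mice the diet could be compared within set A alone, 4 HFrD libraries against 2 Norm libraries. There Hspb7 read 94.2, 84.0, 80.2 and 80.2 FPKM in HFrD and 55.4 and 63.7 FPKM in Norm libraries (log2 0.50, adjusted p = 0.0445), with 0.934% of all genes called. The slow-twitch sum was 131 to 170 FPKM in HFrD F/F libraries and 39.7 and 29.9 FPKM in those Norm libraries. Hspb7 was the one member called there, and over all 8 libraries it differed by log2 0.19 (SE 0.225, adjusted p = 0.574). Over all 8 libraries none of the 10 was called with limma or voom, against 0% of all genes, and Hspb3 (log2 -0.37), Hspb8 (-0.38) and Hsp90aa1 (0.73) reached an unadjusted p under 0.05, against 23.6%. Those 3 were at log2 -0.23, -0.17 and 0.27 once the set was a term of the fit. Without that term Hspa1a differed by log2 0.21 (SE 0.47) and Hspa1b by -0.2 (SE 0.645). The difference between genotypes in the diet response was not called for any of the 10 (0% of all genes), and Hspb2, Hspb3, Hspb8 and Cryab reached an unadjusted p under 0.05, against 10.3%. Without Norm F/F library c369, Cryab (log2 -0.98, adjusted p = 0.0339), Hspb2 (-0.98, adjusted p = 0.0396) and Hspb8 (-0.58, adjusted p = 0.0403) passed. That contrast sets Norm F/F libraries of both sets against Norm ChMKO libraries of set B.

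ChMKO and F/F mice were compared within each condition of this experiment. Mlxipl was lower in ChMKO mice by log2 -1.16 in Norm, -1.27 in Hypo and -0.92 in HFrD libraries (adjusted p = 0.00655, 0.00297 and 0.00307). On the high-fructose diet, where all 8 libraries are of set A, none of the 10 genes was called, against 0.019% of all genes, with limma or voom. Cryab alone reached an unadjusted p under 0.05, against 7.36%, at 288, 242, 240 and 218 FPKM in ChMKO and 305, 284, 253 and 354 FPKM in F/F mice (log2 -0.27, SE 0.108, adjusted p = 0.648). The groups overlap, and the other 9 differences lay between log2 -0.19 (Hspb6) and 0.06 (Hspa1b).

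In normoxia none of the 10 was called with limma or voom, against 0.00922% of all genes, and Hspb2 reached an unadjusted p under 0.05, against 11.1% (log2 0.76, SE 0.235, adjusted p = 0.419). Within set B, with 2 F/F and 4 ChMKO libraries, Hspb2 differed by log2 0.33, Cryab by 0.05 in place of 0.43, Hspb6 by -0.18 in place of 0.35, Hspb1 by -0.06 in place of 0.47 and Hsp90aa1 by 0.06 in place of -0.40. No gene of the 10 was called there, against 0.00926% of all genes. In hypoxia none was called with limma or voom, against 0.00941%, and Hspb1 (log2 0.79), Hspb8 (0.46) and Hspa1b (0.56) reached an unadjusted p under 0.05, against 5.27%. Within set B of hypoxia these were 0.25, 0.33 and 0.38, again with no call against 0.00951% of all genes, and Hsp90aa1 was at 0.15 in place of -0.69. When set A was left out, the estimates of Hspb1, Hspb6, Hspb7, Hspa1b and Hsp90aa1 in normoxia and of Hspb2 and Hsp90aa1 in hypoxia changed sign.

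Overexpression was compared in muscle and in cells. In GC with AAV-ChREBP, Mlxipl was 83.5 ± 19.1 FPKM (SD, n = 5) against 11.3 ± 0.749 FPKM in AAV-CON (log2 2.74, adjusted p = 2.28e-06). Transcripts of the vector carry the gene, so this value includes them. None of the 10 heat shock protein genes was called, against 0.00925% of all genes, a share that is Mlxipl alone, and none reached an unadjusted p under 0.05, against 2.85%. The differences lay between log2 -0.36 (Hspb7, SE 0.355) and 0.07 (Hspa1b, SE 0.539). Hspb7 read 28.5, 43.9, 8.88, 39.9 and 22.1 FPKM in AAV-CON and 14.8, 14.4, 19.4, 29.8 and 22.4 FPKM in AAV-ChREBP, with full overlap. The slow-twitch sums of these libraries were 13.8, 70.7, 1.17, 156 and 62.3 FPKM and 5.39, 7.52, 42.0, 103 and 52.2 FPKM. Tnnc1 was not found in this experiment, so these sums hold 4 markers and are not on the measure used for the other muscle libraries. The most precise estimates were those of Hspb2 (log2 -0.03, SE 0.0605), Hspb3 (-0.09, SE 0.0647), Hspb6 (-0.13, SE 0.0799) and Hspb8 (0.05, SE 0.0913). The libraries numbered 7 were the highest in the HSP70 pair and Hsp90aa1 in both arms, with Hspa1a at 11.1 FPKM in AAV-CON and 18.7 FPKM in AAV-ChREBP against at most 4.17 FPKM in the other 8. Without both libraries numbered 7 the difference of Hspa1a was log2 -0.35 and that of Hspb7 -0.34, and none was called.

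C2C12 cells expressed a different balance of the genes. In control cells at day 7, Hspb1 (734 ± 53.9 FPKM, SD, n = 4) was the most abundant, followed by Hsp90aa1 (353 ± 4.05) and Cryab (182 ± 2.45), and no neighbours among these 3 overlapped. Hspb8 (45.9 ± 1.39), Hspb2 (30.5 ± 1.8), Hspa1b (18.0 ± 1.36), Hspb6 (10.9 ± 0.795), Hspb7 (3.06 ± 0.359), Hspa1a (1.44 ± 0.101) and Hspb3 (0.633 ± 0.278) followed. Hspb1 made 53.2% of the summed level of the 10 genes there and 9.39% in GC of chow-fed F/F mice, where Hspb6 made 37.8%. These tables were normalized separately, and the shares were not tested.

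With ChREBP overexpression, Mlxipl was 13.4 ± 0.409 FPKM in C2C12 cells, against libraries listed at 0, 0.02, 0 and 0 FPKM in control cells. Of the 10 genes 3 were higher and none lower, against 30.5% of all genes called. Hspb2 read 30.6, 33.0, 29.2 and 29.3 FPKM in control and 45.6, 48.2, 42.6 and 43.1 FPKM in overexpressing cells (log2 0.54, SE 0.0483, adjusted p = 1.2e-05). Cryab, its head-to-head neighbour, read 183, 185, 180 and 181 against 221, 224, 216 and 210 FPKM (log2 0.25, SE 0.0275, adjusted p = 4.87e-05). Hspb7 read 3.41, 2.75, 2.76 and 3.34 against 3.45, 4.29, 4.10 and 3.82 FPKM (log2 0.28, SE 0.0755, adjusted p = 0.0179). The groups did not overlap for any of these 3, although the lowest Hspb7 library of overexpressing cells, at 3.45, stood just above the highest control at 3.41. The Hspb7 call was lost without control library 2 (log2 0.24, adjusted p = 0.0512) or overexpressing library 2 (log2 0.24, adjusted p = 0.054). Hspa1b reached an unadjusted p under 0.05 and was not called (log2 -0.14, SE 0.0584, adjusted p = 0.0919). It passed without control library 4 (adjusted p = 0.0367) or overexpressing library 3 (0.0493), as did Hspb1 without control library 3 (log2 -0.14, adjusted p = 0.0398) and Hspb6 without control library 2 (log2 0.14, adjusted p = 0.0364). Hspb8 (log2 -0.02, SE 0.0305) and Hsp90aa1 (0.01, SE 0.028) were the most closely bounded of the rest.

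**Figure D5:**
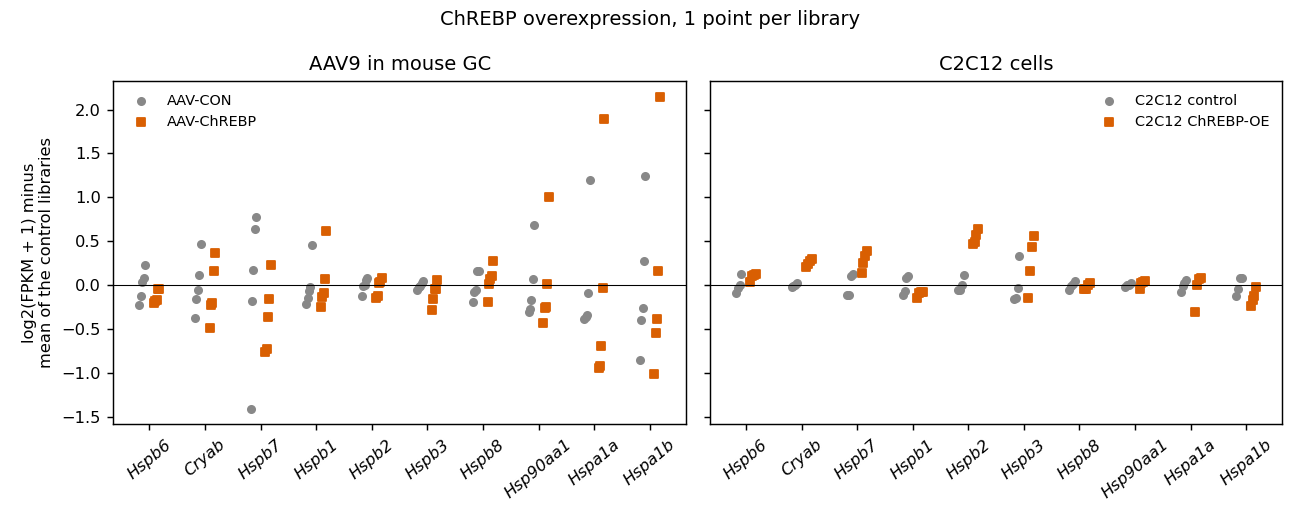
Level of each gene in every library as log2(FPKM + 1) minus the mean of the control libraries, for AAV-injected GC (n = 5 per group) and C2C12 cells (n = 4 per group). In GC the arms overlap for all 10 genes, and in C2C12 cells Hspb2, Cryab and Hspb7 lie above their controls.

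Markers of differentiation moved in the same C2C12 comparison. The summed slow-twitch markers rose from 393 to 430 FPKM in control to 547 to 585 FPKM in overexpressing cells, the fast-twitch markers in sum from at most 334 FPKM to at least 405 FPKM, with 3 of 5 higher and Myh1 (log2 -0.50) and Myh4 (-0.32) lower, and the smooth muscle markers from 433 to 456 FPKM to 769 to 797 FPKM. Of 6 muscle fiber markers 5 were higher, with Ttn at log2 0.83 and Myog at log2 0.67, while 4 of 5 fibroblast markers were lower. Of 11 immediate early genes 8 were higher and 1 lower, with sums of 546 to 603 FPKM in control and 605 to 632 FPKM in overexpressing cells. Adipocyte markers were at 0 to 0.06 FPKM in sum in both lines. The part of these in the heat shock protein values was not tested. Among the partners, the HSP90 cofactors Smyd1 (log2 0.58) and Unc45b (0.56) were higher, 2 of 13 in that list with 1 lower. Of 9 autophagy and Z-disc partners 2 were higher, with Synpo2 at log2 0.46, and 4 were lower, with Bag3 at -0.20. The J-domain list had 3 higher (Dnajb5 0.26, Dnajb4 0.21 among them) and 2 lower of 14, the other HSP70 and HSP110 list 3 higher (Hspa4l 0.32, Hspa13 0.20 among those called) and 3 lower of 13, the chaperonins 1 higher (Cct8, 0.22) and 1 lower (Hspd1, -0.08) of 10, and the endoplasmic reticulum stress genes 1 higher (Atf4, 0.25) and 1 lower (Ddit3, -0.33) of 11. Of the heat shock factor genes, Hsbp1 alone of 4 was called, at log2 0.11.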

How the data were processed

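RNA sequencing of GC, SOL and C2C12 cells was analysed from the FPKM values that the authors deposited, in 4 tables normalized separately. For AAV and C2C12, that unit was inferred from the study's methods and the values. Per the labels and the study's methods, mRNA libraries read on a NovaSeq were trimmed with fastp 0.18.0 and aligned with HISAT2 2.1.0. The submitters' processing notes also name GRCm39, Bowtie2 2.2.8, StringTie 1.3.1 and RSEM, with no role. Positions in the chow table follow GRCm38 and those in the hypoxia and diet table GRCm39, so coordinates are given in GRCm38 only. Columns with the authors' own fold changes and p-values in the AAV table were not used, and no other column of sample values was left out (0 columns).

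Each comparison was fitted with limma 3.58.1 in R 4.3.3 (empirical Bayes with trend, two-sided) on log2(FPKM + 1) of its 2 groups, over all genes averaging 0.5 FPKM or more, and p-values were adjusted over all those genes by Benjamini and Hochberg. Differences on this scale understate changes of low genes. A call is an adjusted p under 0.05. Each interaction was a contrast fitted only on the groups that enter it. Genotype by hypoxia left out the HFrD groups, and genotype by diet left out the Hypo groups. Where a symbol had several entries (4 each for Hspa1a and Hspa1b in the chow table), the entry with the highest mean was kept. The members and gene lists were chosen with earlier results of these data known. All 10 members were described, called members by every library, and of each partner list the genes called with an absolute log2 difference of at least 1, otherwise the 2 largest. The fits of 4 comparisons were tested on simulated data, with changes placed in the more abundant genes only. Of changes of log2 0.5, 56% were recovered for SOL against GC in F/F mice and 45% for hypoxia in ChMKO mice. For AAV it was 83% and for C2C12 cells 100%. Of changes of log2 1, 89% to 100% were recovered, and 3.72% to 6.45% of calls were false. An uncalled difference of moderate size can therefore be a missed one.

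For the hypoxia and diet table, the smallest nonzero product of FPKM and gene length in each library was taken as 1 read. On that scale 99.85% of nonzero values were whole reads (within 0.01), and the libraries held 14473170 to 23460515 reads. Relative depth differed at most 1.21-fold in the chow and 1.31-fold in the AAV table, and the 2 decimals of the C2C12 table do not give it. Same-numbered AAV libraries of the 2 arms deviated together (correlations of 0.237 to 0.519), each best with its own number except library 4. The labels do not say what the shared numbers stand for. The AAV estimates and p-values in the results come from the limma fit without a block. No pair of libraries was identical. The study's methods call the replicates independent, and for its C2C12 assays it names separate culture wells, all of 1 line per arm, so those p-values measure the spread between wells of a line. Alternatives were other pseudocounts and filters, rescaled libraries, all groups in 1 fit, the study's criterion, voom on recovered reads, a replicate block, leaving out each library and, chosen after seeing the data, the set of libraries, the summed entries and the AAV comparison without both libraries numbered 7.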

Additional observations from a re-analysis of the deposited data

Results flagged for a closer look

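In 140 groups of 4 or 5 libraries, 1 for each member and group, the highest or lowest library was compared with its neighbours by Dixon's test at the 95% level, which chance alone passes in about 1 in 20 groups. It was passed in 19. The HSP70 pair and Hsp90aa1 account for 10 of them. Norm F/F library c369 stood above its group in Hspa1a (5.71 FPKM, next 0.584) and Hspa1b (13.3, next 2.05), and Norm ChMKO library c370 did so in Hspa1a (12.9, next 1.61) and Hspa1b (34.3, next 3.06). In these 2 libraries the summed immediate early genes were 638 FPKM (others of the group 89.1 to 103) and 287 FPKM (others 110 to 184). The immediate early sum was not the highest of the group in the other libraries with high HSP70 values, at 39.1 FPKM in AAV-CON library 7 (group 26.9 to 71.6), 50.5 FPKM in AAV-ChREBP library 7 (28.2 to 62) and 95 FPKM in HFrD F/F library c310 (95 to 195), and it was 353 FPKM in Hypo ChMKO library c345, which stood out in neither HSP70 gene. Their part was not tested. The AAV libraries numbered 7 stood above their groups in Hspa1a (11.1 in AAV-CON, next 3.96, and 18.7 in AAV-ChREBP, next 4.17), and in AAV-ChREBP also in Hspa1b (17.1, next 3.57) and Hsp90aa1 (63.7, next 31.4), while Hspb1 was high in AAV-CON (115, next 82.2). HFrD F/F library c310 was high in Hspa1b (6.70, next 1.90) and Hypo F/F library c360 was low (1.2, next 2.48).

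Hypo F/F library c341 stood above its group in Cryab (923 FPKM, next 393) and Hspb6 (441, next 211), and it was also the highest of the group in the sums of slow-twitch (517 FPKM, others 92.3 to 191), red blood cell (644, others 156 to 331), endothelial (95, others 50.5 to 71.7) and smooth muscle markers (93.8, others 50.3 to 68.4), whose part was not tested. Hspb1 was high in F/F GC library 58 (170, next 119) and in F/F SOL library 70 (531, next 290). Hspb2 was high in HFrD F/F library c292 (6.18, next 4.87). The remaining values were low, namely Hspb3 in ChMKO SOL library 59 (18.7, next 20.9), Hspb6 in HFrD ChMKO library c309 (127, next 175) and Hspb1 in overexpressing C2C12 library 4 (663, next 688).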

How the results depend on the processing

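The number of members called kept within 1.5 times its value in each comparison except as follows. Under the study's criterion (absolute log2 difference of at least 1 and unadjusted p under 0.05) it was 3 for SOL against GC in ChMKO mice, 2 for the diet in ChMKO mice, 1 (Hspb7) for hypoxia in ChMKO mice and 0 in C2C12 cells. That criterion asks for a larger difference and does not adjust p. It was applied here to limma p-values and log2(FPKM + 1) differences, whereas the study used DESeq2. Counts under it, for members and for all genes, are therefore not the study's own and cannot be set against them. Within set A it was 1 for hypoxia and 1 for the diet in F/F mice, Hspb7 each time. With each library left out in turn it was 5 to 8 for SOL against GC in F/F and 8 to 9 in ChMKO mice, 7 throughout for the diet in ChMKO mice, 2 to 4 in C2C12 cells, 0 to 1 for hypoxia in ChMKO mice and 0 to 3 for the genotype difference in the diet response. Elsewhere it was 0 throughout. No called member changed sign. Of 133 member differences that were not called, 27 changed sign under at least 1 setting. For the AAV and C2C12 tables, all groups in 1 fit is the main fit. The count of all genes called for hypoxia in ChMKO mice was 95, with 6 without a filter, 149 rescaled and 213 in 1 fit. For the diet in F/F mice it was 0, with 220 in 1 fit, and for hypoxia in F/F mice 0 and 2. For genotype it was 3 in SOL on chow, with 9 in 1 fit, 2 on the diet, with 1 in 1 fit, and 3 in GC on chow, with 5 at a pseudocount of 0.1 or without a filter. The cause was not tested. A filter at 5 FPKM, which tests fewer genes, moved it from 6673 to 3319 and from 7575 to 3942 for SOL against GC in F/F and ChMKO mice, from 6868 to 3357 for the diet in ChMKO mice, from 3 to 0 for genotype in SOL and from 1 to 0 for genotype by muscle. Under the study's criterion it was 1058 and 1024 for SOL against GC, 543 for the diet in ChMKO mice, 45 in F/F mice, 18 for hypoxia in F/F mice, 46 (main count 3647) in C2C12 cells, 2 (1) for AAV, 21 (3) for genotype in each chow muscle, 66 (1) in normoxia and 6 (1) in hypoxia.

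The replicate block moved the count of all genes called from 6673 to 6467 for SOL against GC in F/F mice, from 7575 to 7266 in ChMKO mice, from 3647 to 3357 in C2C12 cells and from 1 to 1 for AAV. With the block 7 members were called in F/F mice, Hsp90aa1 being added (log2 0.42, adjusted p = 0.0392), and 8 in ChMKO mice. Deviations of same-numbered GC and SOL libraries correlated at -0.04 to 0.341 in F/F (4 of 5 best with their own number) and 0.0229 to 0.0578 in ChMKO mice (1 of 5). Those of C2C12 libraries correlated at -0.0819 to 0.193 (2 of 4). The main fits of these comparisons and of AAV used no block. The genotype difference between the muscles kept the number as a random effect and called none of the members with or without it. The SOL F/F library used as 69, of the pair at -0.04, is numbered 59 in its title and 69 in its column name, so its number is uncertain. For AAV the block changed no call. Hspa1a and Hspa1b lay near the floor on chow, where the lowest GC library read 0.0207 FPKM of Hspa1a. The part of depth in this was not tested.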
